A study of Mus musculus with 10 samples.

Results

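The 10 libraries of this series, RNA-seq of mouse terminal ileum, were ordered by how much smooth muscle RNA they hold, and the 5 highest were compared with the 5 lowest whatever surgery the mouse had received. The order rests on a muscle score, the mean of log2(CPM + 1) over Myh11, Des and Cnn1, with CPM, the count scaled to a fixed library size, taken by library total. These 3 genes encode the myosin heavy chain of smooth muscle, the intermediate filament protein desmin and the actin-binding protein calponin 1. The muscle-rich set is therefore 5 of 10 libraries and the muscle-poor set the other 5, and the sets are defined by measured values, not by a treatment.

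All mice were male C57Bl6 animals, kept on a diet with 60 kcal % fat for 6 weeks before an operation at an age of 8 weeks. In 5 mice the operation was a vertical sleeve gastrectomy (VSG), which removes most of the stomach along its outer curve, with food ad libitum afterwards. The other 5, titled SPF in the labels and called sham here, had a sham operation and were pair-fed, that is, their food was matched to what VSG mice ate. Both groups received liquid Osmolite for 4 days around the operation, were sampled about 8 weeks after it following an overnight fast, and had 0.5 mL of Osmolite by gavage 1 hour before the ileum was taken. The labels number the libraries 1 to 5 within each surgery and do not say how the tissue was dissected.

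The wall of the ileum is built in layers. An epithelium of enterocytes, goblet, Paneth, tuft and hormone cells lines the lumen, a lamina propria with fibroblasts, vessels and immune cells lies beneath it, and the outer muscle coat holds circular and longitudinal smooth muscle with the nerve cells, glia and pacemaker cells of the myenteric plexus between them. Smooth muscle genes are switched on by serum response factor, which binds CArG boxes in their promoters together with the coactivator myocardin. In RNA from a whole piece of tissue, fewer cells of a type and less RNA per cell cannot be told apart.

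The muscle score ran from 4.57 to 9.26. In falling order it was 9.26 in sham 5, 7.86 in sham 2, 7.57 in VSG 1, 7.45 in VSG 5 and 7.26 in sham 4, which form the muscle-rich set. It was 6.85 in sham 1, 6.69 in VSG 3, 6.66 in VSG 2, 6.31 in VSG 4 and 4.57 in sham 3, the muscle-poor set. Both ends of the order are sham libraries, and the gap between sham 4 and sham 1, the libraries just inside and just outside the muscle-rich set, was 0.41. By surgery the score was 6.94 ± 0.54 (SD, n = 5) after VSG and 7.16 ± 1.71 (SD, n = 5) after sham. The sham mice spanned a wider range, which held all VSG scores. Sham 5, sham 2 and sham 3 lay outside the VSG range of 6.31 to 7.57. Below, 5 values given for a set always follow this falling order.

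As a description of the choice, Myh11 stood at 539.9, 522, 232, 337 and 278 CPM in the muscle-rich libraries and 158, 170.4, 163, 125 and 25.2 CPM in the muscle-poor ones. Des was at 667, 262, 204, 179 and 169 CPM in the muscle-rich libraries and 88.8, 116, 123, 83.3 and 32.6 CPM in the muscle-poor ones. Both genes were higher in every muscle-rich library than in any muscle-poor one. Cnn1, at 442, 109, 145, 102 and 62.6 CPM in the muscle-rich libraries and 78.3, 60.6, 48.5, 49.7 and 20.6 CPM in the muscle-poor ones, overlapped: sham 4 lay below sham 1. These CPM values, and all that follow, are scaled by TMM factors. Relatives that the score did not use followed the same order in most libraries. Acta2, the smooth muscle alpha-actin, reached 603, 330.3, 335, 305 and 246 CPM in the muscle-rich libraries and 222, 172, 151, 166 and 76.8 CPM in the muscle-poor ones, with no overlap and a log2 fold change of 1.21 ± 0.30 (SE). Actg2, the gamma-actin of gut smooth muscle, had 677, 209.7, 186, 164 and 88.7 CPM in the muscle-rich libraries and 117, 84.6, 69.0, 76.8 and 33.6 CPM in the muscle-poor ones. Tagln, the actin-binding protein transgelin, had 569, 267, 276, 248 and 148 CPM in the muscle-rich libraries and 191, 128, 107, 135 and 67.7 CPM in the muscle-poor ones. For Actg2 and Tagln, sham 4 again lay below sham 1. The log2 fold changes were 1.80 ± 0.51 (SE) for Actg2 and 1.26 ± 0.36 (SE) for Tagln. A score made of these 3 relatives exchanged only sham 4 and sham 1 between the sets.

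**Figure D1:**
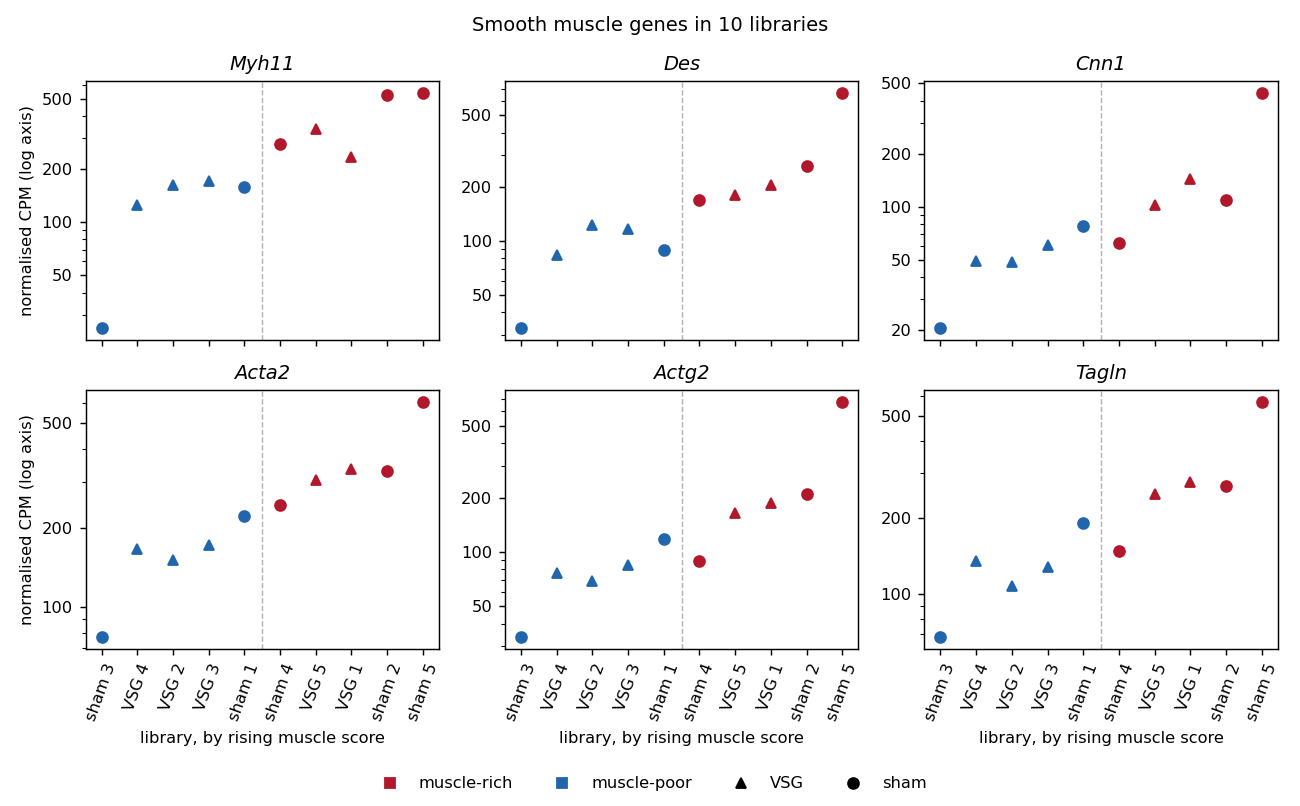
Normalised CPM on a log axis for the 3 genes of the score (top row) and 3 relatives (bottom row), with the 10 libraries ordered by rising muscle score. Each point is 1 library, colour marks the set and shape the surgery, and the dashed line is the division between the sets. Sham 3 is the lowest point and sham 5 the highest in all 6 panels.

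Other features of the libraries do not divide at the same place. Library totals ran from 15364651 to 34058181 counts and were not detectably different between the sets (exact two-sided permutation test, p = 0.643) or between VSG and sham (exact two-sided permutation test, p = 0.421). Correlations of log2(CPM + 1) between libraries were 0.927 to 0.99. In 3 libraries the upper-intestinal transcription factor Gata4 was high, at 109.5 CPM in sham 2, 183.5 CPM in sham 4 and 120.9 CPM in VSG 2, against 1.72 to 6.28 CPM in the other 7. In those 3 libraries Fabp6, the bile acid carrier that marks ileum, was at 57.3, 62.1 and 39.0 CPM, against 2558 to 6112 CPM in the other 7, so they go against the label of terminal ileum. The muscle-rich set holds 2 of them and the muscle-poor set 1, and values without them are given beside some of the lists. Sham 3, the library with the least muscle, also stood apart in cytosolic ribosomal protein genes, which summed to 32560 CPM there and to 14760 to 20980 CPM elsewhere.

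The stretch of 250 bases before the transcription start was read from the RefSeq promoter table (build GRCm38.p6) for the muscle genes it holds. Des and Cnn1 are shown because they define the score, Acta2 and Myl9 because they are contractile genes without overlap between the sets whose window holds matches, and Srf because it encodes serum response factor. Myh11, Actg2 and Tagln are not shown. A CArG box is CC, 6 bases that are each A or T, then GG, a motif that reads alike on both strands. Capitals mark a full match or a match with 1 of the 6 middle bases other than A or T, a looser search added after the first results.
Des, chr1:75360042-75360291, plus strand: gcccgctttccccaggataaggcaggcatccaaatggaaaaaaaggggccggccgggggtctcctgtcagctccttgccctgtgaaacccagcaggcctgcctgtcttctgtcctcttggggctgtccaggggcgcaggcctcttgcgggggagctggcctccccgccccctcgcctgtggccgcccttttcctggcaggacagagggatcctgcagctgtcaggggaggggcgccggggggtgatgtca
Cnn1, chr9:22099003-22099252, plus strand: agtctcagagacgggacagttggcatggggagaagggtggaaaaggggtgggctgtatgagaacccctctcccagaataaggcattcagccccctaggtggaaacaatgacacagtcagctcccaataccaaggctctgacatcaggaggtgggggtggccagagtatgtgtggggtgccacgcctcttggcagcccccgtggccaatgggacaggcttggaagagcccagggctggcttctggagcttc
Acta2, chr19:34255374-34255623, minus strand: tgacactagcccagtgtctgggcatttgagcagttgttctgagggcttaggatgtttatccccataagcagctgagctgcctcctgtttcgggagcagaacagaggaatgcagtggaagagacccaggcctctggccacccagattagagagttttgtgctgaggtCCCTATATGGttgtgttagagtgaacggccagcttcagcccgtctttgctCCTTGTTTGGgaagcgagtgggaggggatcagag
Myl9, chr2:156775214-156775463, plus strand: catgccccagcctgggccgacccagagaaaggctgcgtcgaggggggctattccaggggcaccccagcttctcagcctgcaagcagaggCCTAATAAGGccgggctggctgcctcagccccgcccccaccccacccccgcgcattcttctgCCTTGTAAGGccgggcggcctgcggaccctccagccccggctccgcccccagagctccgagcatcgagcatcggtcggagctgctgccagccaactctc
Srf, chr17:46556163-46556412, minus strand: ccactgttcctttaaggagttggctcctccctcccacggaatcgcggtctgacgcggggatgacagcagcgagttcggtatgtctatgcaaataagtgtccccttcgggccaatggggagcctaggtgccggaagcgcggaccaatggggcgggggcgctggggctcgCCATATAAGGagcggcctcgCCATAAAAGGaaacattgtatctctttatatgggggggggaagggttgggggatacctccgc
The Des and Cnn1 windows hold no match of either kind. That of Acta2 holds 2 looser matches, starting 84 and 34 bases before the start site, and 0 full ones. Myl9 has a full match at 161 bases and a looser one at 99 bases, and Srf has 2 full matches, at 82 and 62 bases. Over all 27025 genes of the table, 1.62% have a full match in a window of this length. Full matches were found in 3 of the 13 contractile protein genes with a promoter in the table (Cnn2, Myl6 and Myl9) and in 5 of 16 genes of the muscle cytoskeleton (Dmd, Fhl1, Filip1l, Ldb3 and Vcl). They were found in 0 of 17 genes of muscle excitation, 1 of 19 neuron genes and 1 of 17 pan-epithelial genes. These counts describe letters in a short window and were not tested.

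Across the 15678 genes with enough counts, the muscle-rich libraries differed from the muscle-poor ones by less than the adjusted threshold for every gene. In edgeR's quasi-likelihood test with a Benjamini-Hochberg adjusted p under 0.05, hereafter "called", 0 genes were higher and 0 lower, which is 0% of those tested. An unadjusted p under 0.05 was reached by 828 genes, of which 564 were higher in the muscle-rich set (3.6%) and 264 lower (1.68%). This larger number of higher genes was not seen in every fit: 493 of 1033 were higher without sham 5 and sham 3, and 137 of 583 with the replicate number as a block. Among VSG libraries alone the excess was smaller, with 463 of 858 higher (53.96%, against 68.12% with all libraries). limma-voom also called 0, and DESeq2 called 57 higher (0.364%) and 11 lower (0.0702%). The libraries of the sets did not overlap for 177 genes that were higher in the muscle-rich set (1.13%) and for 23 that were lower (0.147%). Of all genes 48.3% had a positive log2 fold change, with a median of -0.01, which is the level against which the lists below are read.

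A division into sets treats sham 5 and sham 4 alike, although their scores are 9.26 and 7.26. When the score itself was the term of the edgeR model, 269 genes were called as rising with it (1.72%) and 0 as falling (0%). The 269 include the 3 genes of the score, 69 stand in the gene lists described here, and 88 also had no overlap between the sets. This result rests on the ends of the order. Without sham 5, 115 genes rose (0.729%) and 1 fell (0.00634%), Clec2d, with a coefficient of -0.80. Without sham 3, 52 rose (0.328%). Without both 0 were called, with 842 at an unadjusted p under 0.05. The coefficient is the log2 change over the distance between the mean scores of the 2 sets of 5 libraries. These means were 7.88 for the muscle-rich and 6.22 for the muscle-poor libraries. Of the 269, 90 were also called without sham 5, 50 without sham 3 and 33 in both cases. Without the 3 libraries high in Gata4, 170 genes rose (1.07%) and 4 fell (0.0251%), Gm16905 at -2.71, Gm16792 at -1.04, Akr1c13 at -0.53 and Akr1c19 at -0.82. With surgery as a second term 143 rose (0.912%). With Gata4 as a second term 389 rose (2.48%) and 6 fell (0.0383%). The score is measured on the same libraries, so a call marks a gene that varies together with the 3 muscle genes and is no test of a treatment.

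**Figure D2:**
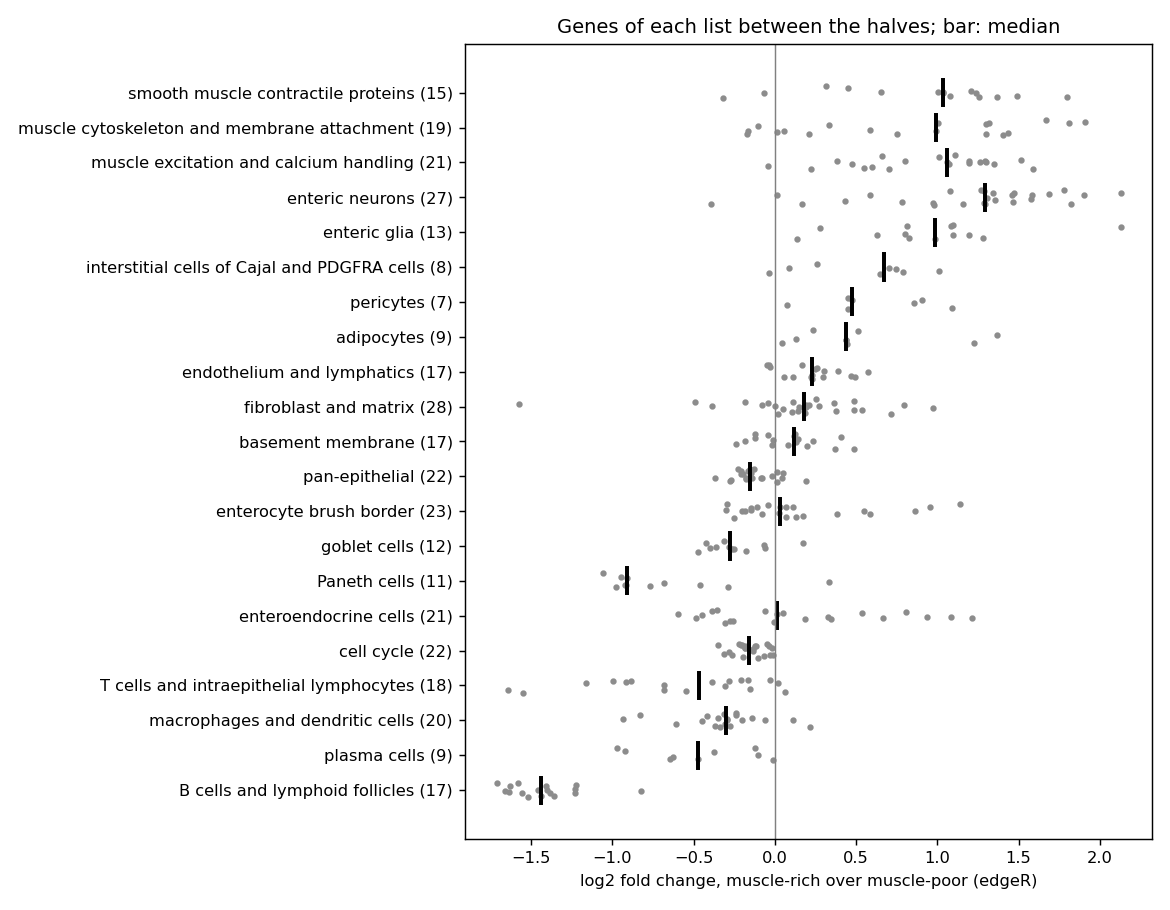
Log2 fold change between muscle-rich and muscle-poor libraries (edgeR) for each tested gene of 21 lists, with the number of genes in brackets. Each grey point is a gene and each black bar a list's median. The contractile, cytoskeleton, excitation, neuron and glia lists have medians between 0.99 and 1.29, and the B cell list has the lowest median, -1.44.

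The contractile apparatus of smooth muscle, beyond the genes of the score, was higher in the muscle-rich libraries for most of its members. Of 15 tested genes 13 were higher in the muscle-rich set, 7 without overlap, and the median log2 fold change was 1.03. Their summed level was 2730 to 5372 CPM in the muscle-rich libraries and 2150 to 2486 CPM in the muscle-poor ones. On the continuous score 10 of the 15 rose, 10 of 15 without sham 5, 9 of 15 without sham 3 and 0 of 15 without both. Among all genes the shares called as rising were 1.72%, 0.729%, 0.328% and 0% in these fits. Of all genes 1.13% were higher without overlap. These shares are also the background for the counts of higher or rising genes in the lists below.

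Tpm2, the beta-tropomyosin that lies along the actin filament, had 276, 176, 146, 134 and 102 CPM in the muscle-rich libraries and 79.5, 63.1, 64.8, 63.4 and 26.9 CPM in the muscle-poor ones. The lowest muscle-rich value, in sham 4, was above the highest muscle-poor value, in sham 1. Its log2 fold change was 1.49 ± 0.32 (SE). Myl9, the regulatory light chain whose phosphorylation starts contraction and whose promoter is printed above, had 236, 204, 164, 167 and 112 CPM in the muscle-rich libraries and 100.2, 80.6, 71.7, 89.9 and 32.0 CPM in the muscle-poor ones. It also showed no overlap, with a log2 fold change of 1.24 ± 0.29 (SE). Smtn, smoothelin, a protein of fully contractile smooth muscle, had 96.2, 78.3, 56.3, 61.1 and 63.1 CPM in the muscle-rich libraries and 42.4, 38.2, 39.4, 32.4 and 21.1 CPM in the muscle-poor ones, and its log2 fold change was 1.03 ± 0.21 (SE). Smtn, Tpm2, Acta2, Actg2 and Tagln were called on the score with all libraries, without sham 5 and without sham 3, whereas Myl9 was not called without sham 3. The list's lowest members were Cnn2, at -0.32 ± 0.21 (SE), and Myl6, at -0.06 ± 0.25 (SE), both made in many cell types and both, like Myl9, with a full CArG match. These 2 and other genes named for an extreme of a list or a promoter match were chosen after their values were seen.

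Proteins that anchor and protect the contractile filaments had a median of 0.99. Of 19 tested members 16 were higher in the muscle-rich set and 6 did not overlap. The list's summed level overlapped, at 458.2 to 934.5 CPM in the muscle-rich set and 275.3 to 474.7 CPM in the muscle-poor set. Sham 1, at 474.7 CPM, lay above VSG 1 and VSG 5. Among VSG libraries alone the list's median was 0.20 and among sham libraries alone 1.34. On the score 11 rose, 6 without sham 5 and 5 without sham 3. Hspb6, a small heat shock protein that takes part in smooth muscle relaxation, had 32.6, 18.1, 13.4, 16.2 and 14.5 CPM in the muscle-rich libraries and 9.13, 9.996, 8.31, 7.34 and 3.27 CPM in the muscle-poor ones, with a log2 fold change of 1.32 ± 0.32 (SE). Popdc2, a cAMP-binding membrane protein of muscle, had 7.62, 4.01, 3.28, 3.32 and 3.84 CPM in the muscle-rich libraries and 1.69, 1.96, 1.63, 2.33 and 0.591 CPM in the muscle-poor ones, with 1.43 ± 0.36 (SE). Both were free of overlap. Cryab, the chaperone alphaB-crystallin, had 12.6, 4.07, 5.51, 3.36 and 4.12 CPM in the muscle-rich libraries and 2.60, 1.22, 2.25, 1.55 and 0.788 CPM in the muscle-poor ones. Sham 5 stood well above the other 9 libraries, and the log2 fold change was 1.81 ± 0.43 (SE). Pdlim7, an actin-associated adaptor, had 43.5, 24.6, 20.2, 18.8 and 20.6 CPM in the muscle-rich libraries and 13.0, 12.6, 16.1, 12.8 and 9.80 CPM in the muscle-poor ones, with a log2 fold change of 0.99 ± 0.24 (SE). The list ranged from 1.91 ± 0.78 (SE) for Flnc, filamin C, down to -0.17 ± 0.30 (SE) for the integrin Itga8. Dmd, Fhl1, Ldb3, Filip1l and Vcl, the members with a full CArG match, lay between -0.16 and 0.33.

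Receptors, channels and calcium pumps of muscle had a median of 1.06. Of 21 tested genes 20 were higher in the muscle-rich set and 5 did not overlap. The list's summed level overlapped, at 301.2 to 502.3 CPM in the muscle-rich set and 167.8 to 335.0 CPM in the muscle-poor set. Sham 1, at 335.0 CPM, lay above VSG 1, VSG 5 and sham 4. Among VSG libraries alone the list's median was 0.28 and among sham libraries alone 1.54. On the score 9 rose, 7 without sham 5 and 3 without sham 3. Kcnmb1, the accessory subunit that makes large potassium channels of smooth muscle sensitive to calcium, had 9.26, 7.04, 5.04, 5.32 and 5.91 CPM in the muscle-rich libraries and 3.64, 3.04, 3.03, 2.96 and 0.906 CPM in the muscle-poor ones. Every muscle-rich library was above every muscle-poor one, and the log2 fold change was 1.26 ± 0.33 (SE). Atp2b4, a plasma membrane calcium pump, had 54.8, 47.0, 22.5, 27.3 and 33.2 CPM in the muscle-rich libraries and 19.7, 16.6, 18.8, 13.4 and 4.06 CPM in the muscle-poor ones and a log2 fold change of 1.35 ± 0.39 (SE). Chrm2, a muscarinic acetylcholine receptor of gut muscle, had 11.1, 17.3, 5.94, 8.56 and 8.75 CPM in the muscle-rich libraries and 4.35, 3.65, 4.39, 4.92 and 0.748 CPM in the muscle-poor ones. Here sham 2 and not sham 5 was highest, and the log2 fold change was 1.51 ± 0.44 (SE). Tacr2, a tachykinin receptor, had 2.21, 1.49, 0.781, 1.04 and 0.780 CPM in the muscle-rich libraries and 0.682, 0.405, 0.427, 0.337 and 0.236 CPM in the muscle-poor ones, with 1.59 ± 0.39 (SE). At these levels Tacr2 rests on few reads, since 1 CPM stands for 14.8 to 38.5 counts depending on the library. Pde5a, at -0.04 ± 0.22 (SE), was the only member below 0.

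Transcription factors of smooth muscle had smaller differences than the genes above. Their median was 0.22, with 9 of 10 tested members higher and 1 without overlap, and on the score 1 rose with all libraries and 0 without sham 5 or without sham 3. That gene was Myocd, myocardin, at 5.15, 2.29, 0.820, 1.08 and 1.56 CPM in the muscle-rich libraries and 1.40, 1.01, 1.09, 1.01 and 0.0788 CPM in the muscle-poor ones. The muscle-rich set overlapped the muscle-poor one because VSG 1 and VSG 5 lay below sham 1, and the log2 fold change was 1.26 ± 0.62 (SE). Mef2d had no overlap, at 88.8, 107, 106, 101.2 and 91.4 CPM in the muscle-rich libraries and 86.5, 85.5, 81.1, 80.2 and 65.6 CPM in the muscle-poor ones, but the fold change was small, 0.31 ± 0.12 (SE). Nkx2-3, a homeobox gene of gut mesoderm, was at 0.35 ± 0.15 (SE), and Srf at 0.02 ± 0.17 (SE). Mef2c, which B cells also express, was lower in the muscle-rich set, at 7.91, 4.23, 3.12, 9.92 and 5.46 CPM in the muscle-rich libraries and 12.7, 5.20, 12.8, 12.9 and 8.23 CPM in the muscle-poor ones.

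Genes of enteric neurons were higher in the muscle-rich libraries by a median of 1.29 on the log2 scale. Of 27 tested genes 26 were higher there and 9 did not overlap. Their summed level was 98.3 to 183.9 CPM in the muscle-rich set and 35.6 to 108.5 CPM in the muscle-poor set. On the score 15 rose, but 8 without sham 5 and 0 without sham 3. Prph, peripherin, a filament of peripheral nerve cells, had 9.75, 9.69, 5.27, 8.08 and 6.57 CPM in the muscle-rich libraries and 3.28, 1.62, 3.26, 3.50 and 1.38 CPM in the muscle-poor ones. All muscle-rich libraries were above all muscle-poor ones, with a log2 fold change of 1.58 ± 0.30 (SE). Uchl1, the pan-neuronal protein PGP9.5, had 11.7, 11.1, 7.31, 7.28 and 9.03 CPM in the muscle-rich libraries and 4.48, 3.44, 5.67, 3.88 and 1.54 CPM in the muscle-poor ones and a log2 fold change of 1.29 ± 0.30 (SE). Snap25, part of the machinery of transmitter release, had 6.92, 6.56, 2.42, 3.52 and 5.18 CPM in the muscle-rich libraries and 2.18, 1.89, 2.10, 1.82 and 0.984 CPM in the muscle-poor ones, with 1.46 ± 0.33 (SE). Elavl3, an RNA-binding protein of neurons, had 1.77, 1.45, 0.469, 0.640 and 1.23 CPM in the muscle-rich libraries and 0.325, 0.405, 0.466, 0.236 and 0.158 CPM in the muscle-poor ones, with 1.82 ± 0.43 (SE). In Snap25 and Elavl3 the 3 sham members of the muscle-rich set were higher than its 2 VSG members.

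Transmitter genes spread more widely. Nos1, which makes nitric oxide in inhibitory motor neurons, had 4.08, 3.46, 0.508, 1.16 and 2.51 CPM in the muscle-rich libraries and 0.357, 0.743, 0.893, 0.607 and 0.118 CPM in the muscle-poor ones. VSG 1, in the muscle-rich set, lay below VSG 2, VSG 3 and VSG 4, so the sets overlapped, and the log2 fold change was 2.13 ± 0.60 (SE). Vip, the peptide of inhibitory and secretomotor neurons, had 22.2, 51.0, 18.99, 20.5 and 17.6 CPM in the muscle-rich libraries and 14.4, 21.9, 15.6, 9.27 and 0.866 CPM in the muscle-poor ones, with 1.08 ± 0.60 (SE). Sham 3 was the lowest library for both genes. Elavl4, another neuronal RNA-binding protein and the neuron gene with a full CArG match, had 2.26, 2.10, 0.547, 0.760 and 0.836 CPM in the muscle-rich libraries and 0.682, 0.540, 0.466, 0.438 and 0.0788 CPM in the muscle-poor ones, with 1.57 ± 0.53 (SE). Chat, which makes acetylcholine and is also expressed by tuft cells, had 1.35, 0.873, 1.02, 1.00 and 1.17 CPM in the muscle-rich libraries and 1.07, 1.15, 1.01, 0.943 and 0.669 CPM in the muscle-poor ones, and its fold change, 0.17 ± 0.23 (SE), was within its error. The lowest member was Ret, at -0.39 ± 0.39 (SE). Among VSG libraries alone the median of the neuron list was 0.46 and among sham libraries alone 1.94. The score spanned 6.31 to 7.57 in the former and 4.57 to 9.26 in the latter. The interaction of set and surgery, fitted gene by gene over all genes in edgeR, called 0 genes, with 1515 (9.66%) at an unadjusted p under 0.05. That fit uses sets cut on measured values and does not address list medians. The difference between the 2 medians was not tested.

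Genes of enteric glia, the supporting cells around those neurons, were higher in the muscle-rich set for 13 of 13 tested, with a median of 0.99 that was 0.65 without sham 5, and 1 gene without overlap. Their summed level overlapped, at 330.4 to 701.8 CPM in the muscle-rich set and 358.8 to 537.0 CPM in the muscle-poor set. Sham 4 had the lowest sum of all and sham 5 a sum of 407.9 CPM. On the score 3 rose, 1 without sham 5 and 2 without sham 3. Gpr37l1, a receptor of glia, had 2.81, 1.58, 1.45, 1.12 and 1.504 CPM in the muscle-rich libraries and 0.780, 0.946, 0.815, 0.708 and 0.276 CPM in the muscle-poor ones. It was the gene without overlap, and its log2 fold change was 1.28 ± 0.35 (SE). S100b, the calcium-binding glial marker, had 1.90, 1.68, 0.781, 1.12 and 1.45 CPM in the muscle-rich libraries and 0.812, 0.608, 0.971, 0.775 and 0.315 CPM in the muscle-poor ones, with 0.99 ± 0.34 (SE). Sox10, the transcription factor of neural crest glia, had 2.13, 1.13, 0.430, 1.00 and 0.891 CPM in the muscle-rich libraries and 0.715, 0.0675, 0.854, 0.573 and 0.158 CPM in the muscle-poor ones. Its log2 fold change was 1.20 ± 0.56 (SE), with overlap between the sets. Gfap stood out in 1 library: 6.11, 0.776, 0.430, 0.560 and 0.780 CPM in the muscle-rich libraries and 0.552, 0.540, 0.582, 0.270 and 0.0788 CPM in the muscle-poor ones. Sham 5 was far above the other 9, and the log2 fold change of 2.13 ± 0.81 (SE) carries a wide error. Among VSG libraries alone the list's median was 0.16 and among sham libraries 1.42.

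**Figure D3:**
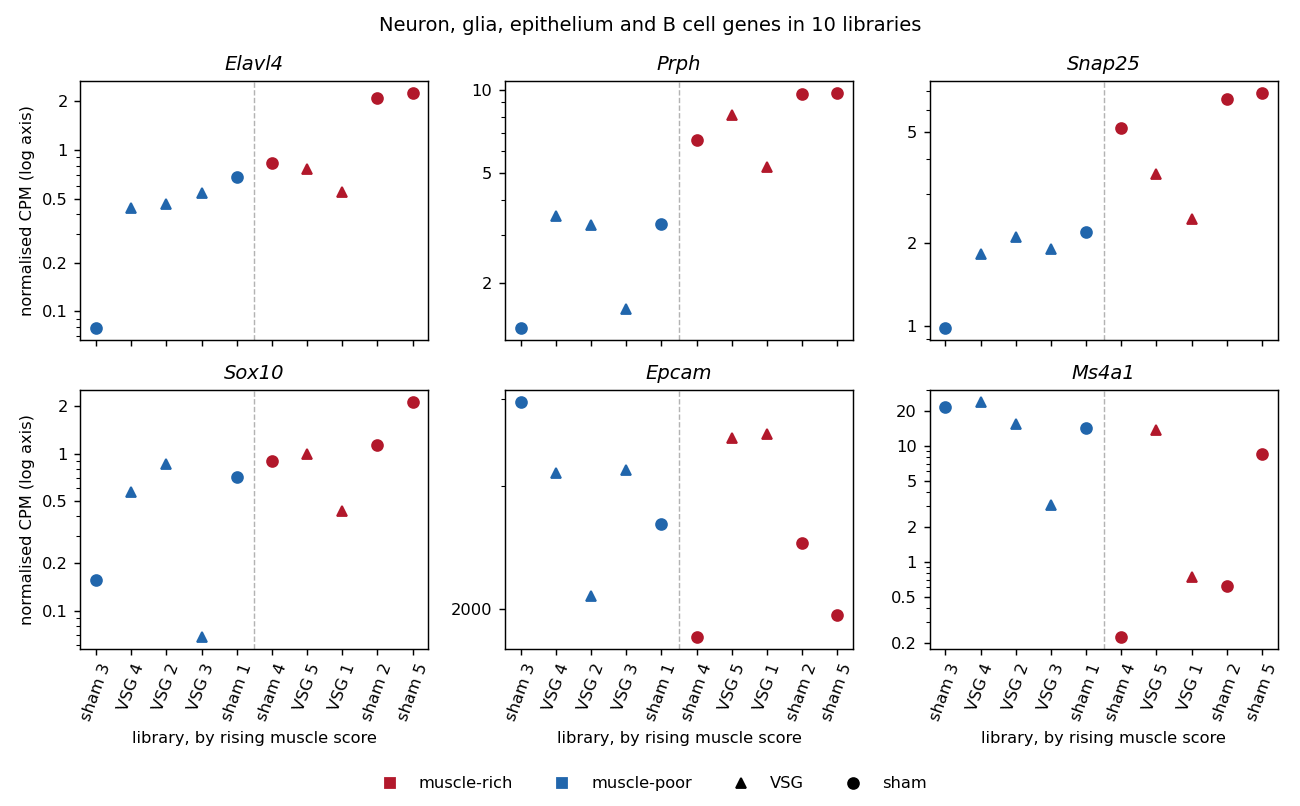
Normalised CPM on a log axis for 3 neuron genes (Elavl4, Prph and Snap25), the glial gene Sox10, the epithelial gene Epcam and the B cell gene Ms4a1, with the libraries ordered by rising muscle score. Each point is 1 library, colour marks the set and shape the surgery. Prph and Snap25 are the 2 panels in which the sets do not overlap.

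Pacemaker cells were followed through the list of interstitial cells of Cajal and PDGFRA cells, with 7 of 8 genes higher, 0 without overlap and a median of 0.67. The median was 0.43 without sham 5, 0.08 among VSG libraries alone and -0.03 without sham 5, sham 3 and the libraries high in Gata4. Kit, the receptor that defines interstitial cells of Cajal and is also found on mast cells, had 40.5, 14.8, 15.5, 13.0 and 10.6 CPM in the muscle-rich libraries and 26.0, 16.1, 13.7, 13.0 and 10.04 CPM in the muscle-poor ones. Its log2 fold change was 0.26 ± 0.38 (SE), and sham 1, just below the division, was the second highest library. Ano1, the chloride channel of the pacemaker current, had 34.8, 17.0, 12.8, 13.6 and 10.8 CPM in the muscle-rich libraries and 12.0, 9.66, 11.2, 13.0 and 5.63 CPM in the muscle-poor ones, with 0.79 ± 0.33 (SE), and was the list's only gene to rise with the score, not called without sham 5 or without sham 3. Etv1 was at 0.74 ± 0.37 (SE), Gjc1 at 0.70 ± 0.30 (SE) and Prkcq at 0.65 ± 0.27 (SE).

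Cells of the vessels showed smaller differences between the sets. Of 7 pericyte genes 7 were higher, with a median of 0.47 and 0 without overlap, and 3 rose with the score, 2 without sham 5 and 0 without sham 3. On the continuous score the pericyte median was larger, 0.896. Mcam, an adhesion protein, had 35.7, 30.1, 19.4, 23.1 and 28.8 CPM in the muscle-rich libraries and 16.8, 15.1, 23.0, 15.3 and 5.51 CPM in the muscle-poor ones, with a log2 fold change of 0.85 ± 0.31 (SE). Abcc9, a subunit of potassium channels in vascular muscle, was at 0.90 ± 0.39 (SE). Both are also made by smooth muscle cells. Rgs5, a regulator of G protein signalling used to mark pericytes, had 113, 188, 62.8, 82.1 and 178 CPM in the muscle-rich libraries and 54.5, 69.0, 93.8, 59.1 and 16.8 CPM in the muscle-poor ones and was highest in sham 2 and sham 4, which are high in Gata4. Without the 3 libraries high in Gata4 its log2 fold change was 0.79, against 1.09 ± 0.42 (SE) with them. Endothelial and lymphatic genes had a median of 0.23, and 0.455 on the continuous score, with 14 of 17 higher, 0 without overlap and 0 called on the score. Among VSG libraries alone their median was -0.44 and among sham libraries 0.64.

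Of 28 tested fibroblast and matrix genes 21 were higher in the muscle-rich set, 0 without overlap. Their median was 0.18, but -0.05 without sham 5, and 0.44 on the continuous score. The main collagens overlapped widely. Col1a1, the main chain of type I collagen, had 66.5, 38.3, 23.8, 28.9 and 33.5 CPM in the muscle-rich libraries and 51.9, 54.6, 29.3, 26.0 and 23.3 CPM in the muscle-poor ones, with a log2 fold change of 0.05 ± 0.32 (SE). Col3a1, of type III collagen, had 184, 128, 96.6, 94.8 and 91.4 CPM in the muscle-rich libraries and 165, 151, 88.2, 99.0 and 83.1 CPM in the muscle-poor ones, with 0.02 ± 0.26 (SE). For both, sham 5 and the muscle-poor libraries sham 1 and VSG 3 were the 3 highest. Fn1, fibronectin, had 209.5, 73.3, 42.0, 45.9 and 67.5 CPM in the muscle-rich libraries and 54.4, 66.6, 56.1, 30.1 and 16.8 CPM in the muscle-poor ones. Mgp, an inhibitor of calcification, had 28.5, 18.0, 24.3, 18.9 and 20.2 CPM in the muscle-rich libraries and 21.1, 11.7, 14.1, 11.9 and 8.03 CPM in the muscle-poor ones. These were the 2 genes of the list that rose with the score, with log2 fold changes of 0.97 ± 0.49 (SE) and 0.72 ± 0.24 (SE). Fmod, the small proteoglycan fibromodulin, was lowest in sham 2 and sham 4, at 0.676, 0.0323, 0.391, 0.680 and 0.0557 CPM in the muscle-rich libraries and 0.910, 0.608, 1.67, 1.15 and 1.30 CPM in the muscle-poor ones. Basement membrane genes had a median of 0.12, with 10 of 17 higher, and Lamb2, a laminin chain, was the 1 that rose with the score. Mesothelial genes, of which 3 of 7 were tested, had a median of 0.18. Msln, the mesothelial surface protein, stayed under 1.7 CPM in all libraries, at 0.416, 0.0969, 0.391, 1.68 and 0.390 CPM in the muscle-rich libraries and 0.682, 0.405, 0.155, 0.809 and 0.512 CPM in the muscle-poor ones.

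Fat and skeletal muscle were followed as neighbours that a dissected piece could carry. Of 9 adipocyte genes 9 were higher in the muscle-rich set, 0 without overlap, with a median of 0.44 that became -0.05 without sham 5. Adipoq, the hormone of fat cells, had 10.7, 0.808, 4.88, 3.36 and 2.79 CPM in the muscle-rich libraries and 1.30, 4.93, 3.11, 1.04 and 5.63 CPM in the muscle-poor ones. Plin4, a lipid droplet protein, had 22.8, 9.24, 8.20, 10.1 and 8.97 CPM in the muscle-rich libraries and 3.09, 6.28, 8.38, 3.07 and 2.36 CPM in the muscle-poor ones and was the 1 adipocyte gene that rose with the score. Of 10 skeletal muscle genes 3 were tested. Ckm, the muscle creatine kinase, had 12.8, 9.34, 6.84, 7.80 and 6.80 CPM in the muscle-rich libraries and 3.28, 2.70, 3.15, 4.25 and 1.06 CPM in the muscle-poor ones, with no overlap and a log2 fold change of 1.59 ± 0.33 (SE). Acta1 and Mylpf, the other 2, were at -0.24 ± 0.18 (SE) and 0.14 ± 0.25 (SE). Of 8 acinar genes of the pancreas 0 had enough counts to test.

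**Figure D4:**
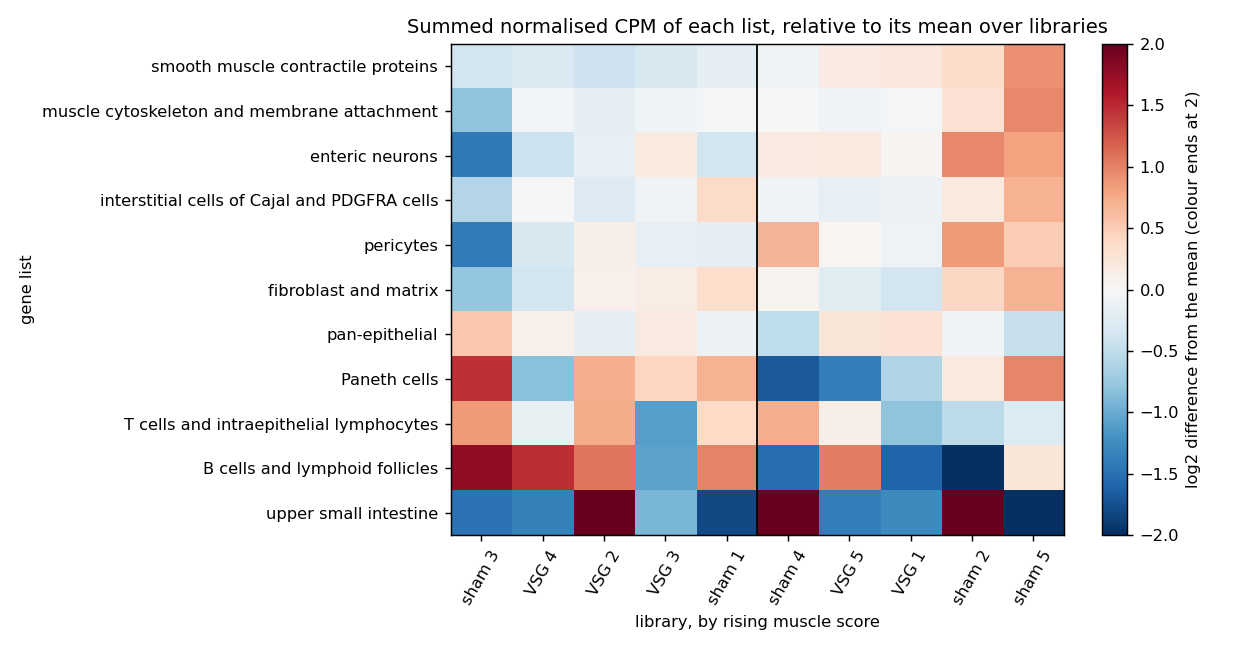
Summed normalised CPM of 11 lists in each library, as the log2 difference from the list's mean over the 10 libraries. Libraries are ordered by rising muscle score, the black line is the division between the sets, and the colour scale ends at 2. The muscle and neuron rows turn from blue to red towards the right, whereas the upper small intestine row follows sham 2, sham 4 and VSG 2.

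Epithelial genes differed little between the sets. Of 22 pan-epithelial genes 17 were lower in the muscle-rich libraries, 0 without overlap and 0 called on the score, and the median was -0.15. Among VSG libraries alone it was 0.25 and among sham libraries alone -0.60. Among all genes 0.147% were lower without overlap and 0% were called as falling, so the counts of 0 do not set this list apart. Epcam, the adhesion protein of epithelial cells, had 1958, 2486, 3567, 3513 and 1818 CPM in the muscle-rich libraries and 2648, 3164, 2085, 3129 and 3961 CPM in the muscle-poor ones. It was highest in sham 3, but VSG 1 and VSG 5, in the muscle-rich set, came next, and the log2 fold change was -0.17 ± 0.28 (SE). Vil1, villin of the microvillus core, had 1827, 3808, 3101, 4042 and 2706 CPM in the muscle-rich libraries and 2829, 3318, 3613, 3868 and 3539 CPM in the muscle-poor ones, with -0.15 ± 0.26 (SE). Cdx2, the intestinal transcription factor, was at -0.37 ± 0.20 (SE), Krt8, a keratin, at -0.28 ± 0.30 (SE) and Hnf4a at -0.23 ± 0.23 (SE). Brush border genes were split, with 13 of 23 higher and a median of 0.03.

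Genes that mark position along the intestine followed the 3 libraries high in Gata4, of which 2 are muscle-rich, and overlapped between the sets. The upper small intestine list had a median of 1.08 with them and -0.34 without them. Gata4 itself had a log2 fold change of 1.13 ± 1.44 (SE), an error larger than the value. The ileal bile acid list had a median of -0.36 with them and -0.05 without. Slc10a2, the bile acid transporter of the ileal brush border, had 192, 15.4, 358, 436 and 3.90 CPM in the muscle-rich libraries and 467, 400.0, 11.3, 519 and 196 CPM in the muscle-poor ones. Without the 3 libraries the medians of the muscle lists were 1.18 for contractile proteins, 0.98 for the cytoskeleton and 0.81 for excitation, and those of neurons and glia were 1.33 and 1.01.

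Paneth cells, which guard the crypt base, had lower medians in the muscle-rich set, with overlap for every gene. Of 11 Paneth cell genes 10 were lower in the muscle-rich set, with a median of -0.91 and 0 without overlap, and 0 were called on the score, where the list's median was -0.24. Without the libraries high in Gata4 the median between the sets was -0.67. Among all genes 0.147% were lower without overlap and 0% were called as falling, so the counts of 0 do not set this list apart. Defa24, an alpha-defensin, had 5007, 3221, 1947, 1034 and 871 CPM in the muscle-rich libraries and 4200, 3608, 5365, 1613 and 8976 CPM in the muscle-poor ones. Sham 3 was highest and VSG 2 next, but sham 5, with the most muscle, followed them. Mmp7, the enzyme that activates defensins in mice, had 154, 78.7, 81.0, 39.2 and 18.3 CPM in the muscle-rich libraries and 146, 154, 154, 48.5 and 273 CPM in the muscle-poor ones, with a log2 fold change of -1.06 ± 0.54 (SE). Defensin genes are near-identical copies, so single members are uncertain. Goblet cell genes were lower for 11 of 12, with a median of -0.28 that was -0.01 without sham 3 and -0.09 without the libraries high in Gata4. Cell cycle genes were lower for 22 of 22, but by little, with a median of -0.16 and Mki67 at -0.20 ± 0.23 (SE). Stem cell and Wnt target genes had a median of 0.09, and Lgr5, the crypt stem cell receptor, had 17.6, 15.1, 10.9, 7.28 and 13.3 CPM in the muscle-rich libraries and 24.1, 14.3, 10.99, 11.7 and 8.39 CPM in the muscle-poor ones, with -0.12 ± 0.30 (SE).

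Hormone-cell genes were evenly split, 11 of 21 higher with a median of 0.01. The member with the lowest p was Cpe, carboxypeptidase E, which trims peptide hormones and is also made by neurons, with 50.5, 61.0, 33.6, 37.6 and 50.3 CPM in the muscle-rich libraries and 25.3, 27.5, 29.0, 23.3 and 17.1 CPM in the muscle-poor ones. Cpe had no overlap, a log2 fold change of 0.93 ± 0.19 (SE) and a call on the score that was not kept without sham 5 or without sham 3. Gcg, the gene of glucagon-like peptides, was at -0.59 ± 0.40 (SE), and Scg2, secretogranin 2, at 0.67 ± 0.21 (SE). Tuft cell genes had a median of 0.12, with 8 of 11 higher.

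B cell and follicle genes had the lowest median of the lists, -1.44. All 17 tested members were lower in the muscle-rich set, 0 without overlap and 0 called on the score. The shares among all genes were 0.147% lower without overlap and 0% called as falling. Ms4a1, the B cell surface protein CD20, had 8.43, 0.614, 0.742, 13.8 and 0.223 CPM in the muscle-rich libraries and 14.3, 3.11, 15.4, 23.8 and 21.5 CPM in the muscle-poor ones. Sham 4, sham 2 and VSG 1 were under 1 CPM, whereas VSG 5 and sham 5 reached the muscle-poor range, which itself went down to 3.11 CPM in VSG 3. Fcer2a, the IgE receptor of B cells, had 5.72, 1.52, 1.05, 6.72 and 1.28 CPM in the muscle-rich libraries and 10.4, 1.96, 8.19, 12.2 and 19.02 CPM in the muscle-poor ones, with a log2 fold change of -1.66 ± 0.64 (SE). Ccr7, which guides lymphocytes to lymphoid tissue, was at -1.38 ± 0.58 (SE). Without the Gata4-high libraries the list's median was -0.91. Summed over the list the level was 22.0 to 236.2 CPM in the muscle-rich set and 55.3 to 397.2 CPM in the muscle-poor set. The ranges overlapped, and the part of lymphoid tissue in the other differences was not tested.

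T cell genes were lower for 16 of 18, with a median of -0.47 that was -0.25 without sham 3 and -0.73 without sham 4. Trac, the constant region of the T cell receptor alpha chain, had 0.754, 0.291, 0.781, 1.20 and 0.836 CPM in the muscle-rich libraries and 2.08, 0.810, 2.06, 1.85 and 4.41 CPM in the muscle-poor ones, with -1.55 ± 0.45 (SE). Cd3e had 2.00, 1.00, 1.84, 2.16 and 2.56 CPM in the muscle-rich libraries and 3.74, 0.540, 3.53, 2.66 and 4.69 CPM in the muscle-poor ones, with -0.68 ± 0.44 (SE). VSG 3 was the lowest muscle-poor library for both genes and for Ms4a1. Plasma cell genes were lower for 9 of 9, with a median of -0.47 that was -0.28 without sham 2 and also -0.28 without the libraries high in Gata4. Igj, the joining chain of secreted antibodies, had 286, 155, 407, 308 and 490.1 CPM in the muscle-rich libraries and 345, 635, 834, 349 and 382 CPM in the muscle-poor ones. Macrophage and dendritic cell genes were lower for 18 of 20, with a median of -0.30, although Csf1r, the receptor that keeps macrophages alive, was at -0.06 ± 0.21 (SE). MHC class II genes were lower for 7 of 7, with a median of -0.47 that was 0.69 among VSG libraries and -1.63 among sham libraries. It was -0.10 without sham 3, -0.28 without sham 2, -1.11 without VSG 5 and -0.12 without the libraries high in Gata4. Red cell genes, which follow blood left in the tissue, were lower for 5 of 5, with a median of -0.46, and -0.90 without the libraries high in Gata4. Hbb-b1 had 28.0, 29.9, 14.7, 12.4 and 22.8 CPM in the muscle-rich libraries and 26.1, 21.1, 21.5, 45.4 and 59.4 CPM in the muscle-poor ones. Globin genes have near-identical copies. Over all these immune and blood lists 0 genes were without overlap and 0 were called on the score. Among all genes 0.147% were lower without overlap and 0% were called as falling, so these counts do not set the lists apart.

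Programs that respond to handling, microbes or metabolism were examined for the same reason, to see what else differed between the sets. Immediate early genes, which rise within minutes of stress, had a median of 0.11, with 14 of 21 higher. Heat shock genes had -0.06, with 4 of 10 higher, and of these Hspb1, a small heat shock protein also abundant in muscle, rose with the score. Its values were 139.7, 16.4, 22.5, 13.5 and 11.5 CPM in the muscle-rich libraries and 8.87, 16.0, 10.1, 8.29 and 6.38 CPM in the muscle-poor ones, with sham 5 far above the rest. Interferon-induced genes had a median of -0.23, with 3 of 19 higher, and 0.07 without the libraries high in Gata4. Genes that microbes induce in the epithelium had 0.01, with 8 of 12 higher, and 0.63 without those libraries, and oxidative phosphorylation had -0.02, with 13 of 30 higher. Cytosolic ribosomal protein genes were lower for 32 of 32, with a median of -0.17 that was 0.09 without sham 3. In these lists Hspb1 was the 1 gene called on the score.

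Signals that pass between muscle, stroma and epithelium differed gene by gene. Of 27 tested genes of BMP, hedgehog and Wnt signalling 21 were higher in the muscle-rich set, with a median of 0.26. On the score 4 rose, 2 without sham 5 and 1 without sham 3. Grem1, a BMP antagonist of muscle and subepithelial cells, had 131, 42.5, 29.7, 31.4 and 23.0 CPM in the muscle-rich libraries and 28.2, 23.9, 24.7, 22.9 and 7.32 CPM in the muscle-poor ones. It was called in all 3 cases, with a log2 fold change of 1.27 ± 0.50 (SE), and sham 5 was the highest by a wide margin. Nog, noggin, another BMP antagonist, had 1.04, 1.03, 1.02, 1.16 and 1.00 CPM in the muscle-rich libraries and 0.877, 0.405, 0.738, 0.607 and 0.197 CPM in the muscle-poor ones. The muscle-rich libraries were closely spaced and all above the muscle-poor ones, with a log2 fold change of 0.87 ± 0.34 (SE). Gli3, a transcription factor of the hedgehog pathway, was at 1.07 ± 0.52 (SE), whereas the ligands Bmp4 and Ihh were at -0.08 ± 0.18 (SE) and -0.04 ± 0.22 (SE). Among neurotrophic and guidance genes 14 of 20 were higher, with a median of 0.26. Gfra1, the receptor for GDNF on enteric neurons, had 3.64, 4.36, 1.56, 2.24 and 1.56 CPM in the muscle-rich libraries and 1.66, 1.08, 1.63, 1.25 and 0.551 CPM in the muscle-poor ones. Nrp2, a semaphorin receptor, had 31.5, 25.4, 10.5, 13.9 and 17.8 CPM in the muscle-rich libraries and 16.8, 9.46, 13.7, 11.1 and 3.74 CPM in the muscle-poor ones. These 2 rose with the score, but neither was called without sham 5 or without sham 3.

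**Figure D5:**
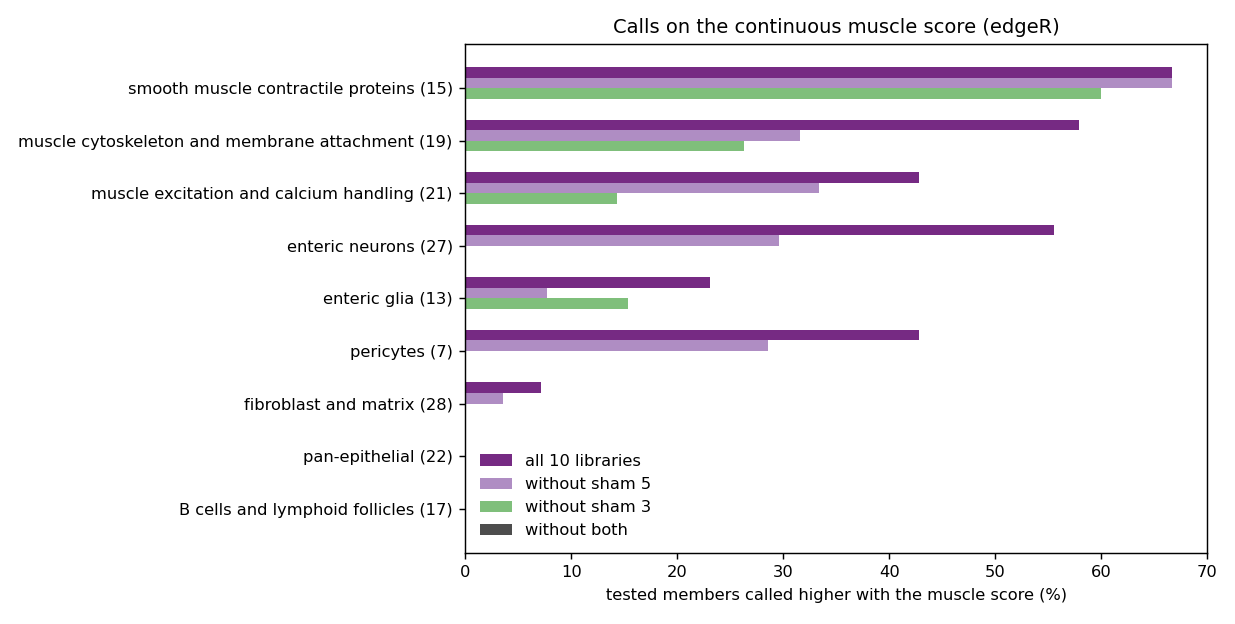
Share of the tested genes of 9 lists (numbers in brackets) that edgeR called as rising with the continuous muscle score, with all 10 libraries and without the highest library (sham 5), the lowest (sham 3) or both. Contractile genes are called for 10 of 15 with all libraries and without sham 5 and 9 of 15 without sham 3, neuron genes for 0 without sham 3, and all lists are at 0 without both.

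Genes outside the lists are named here after their values were seen. Cd59a, an inhibitor of complement, had 41.2, 16.0, 12.2, 10.2 and 10.8 CPM in the muscle-rich libraries and 8.45, 6.48, 6.33, 6.54 and 2.01 CPM in the muscle-poor ones. Pgm5, a protein of muscle adhesion sites, had 62.7, 41.8, 23.9, 24.2 and 18.9 CPM in the muscle-rich libraries and 15.4, 14.1, 12.7, 12.2 and 2.60 CPM in the muscle-poor ones. Both spanned a wide range, with sham 5 highest and sham 3 lowest. Slc2a4, the insulin-regulated glucose transporter of muscle and fat, had 17.4, 12.3, 9.03, 8.88 and 6.85 CPM in the muscle-rich libraries and 4.58, 3.38, 3.69, 4.72 and 1.22 CPM in the muscle-poor ones. Jph2, which ties calcium stores to the cell membrane, had 32.2, 23.0, 12.0, 13.3 and 15.7 CPM in the muscle-rich libraries and 7.02, 8.31, 8.62, 8.15 and 1.93 CPM in the muscle-poor ones. None of the 4 overlapped between the sets, and each was called on the score with all libraries, without sham 5 and without sham 3. Their log2 fold changes were 1.60 ± 0.46 (SE), 1.59 ± 0.45 (SE), 1.63 ± 0.36 (SE) and 1.501 ± 0.40 (SE). Of the 177 genes that were higher without overlap, 88 were called on the score. Ldhb, Tmod1 and Grb14 are 3 examples of those not called. Ldhb, a lactate dehydrogenase subunit, had 7.99, 11.2, 7.19, 8.00 and 7.52 CPM in the muscle-rich libraries and 3.64, 3.04, 3.69, 5.32 and 2.60 CPM in the muscle-poor ones, with 1.19 ± 0.22 (SE). Tmod1, which caps actin filaments, had 5.72, 7.24, 4.18, 5.24 and 7.30 CPM in the muscle-rich libraries and 2.08, 3.31, 2.60, 2.59 and 3.11 CPM in the muscle-poor ones, with 1.12 ± 0.21 (SE). Grb14, an adaptor of the insulin receptor, had 2.96, 3.88, 3.16, 3.00 and 3.34 CPM in the muscle-rich libraries and 1.69, 1.55, 1.40, 1.65 and 0.906 CPM in the muscle-poor ones, with 1.18 ± 0.21 (SE). In these 3 genes the muscle-rich libraries were close together and sham 5 was not the highest.

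Of the 23 genes that were lower without overlap, 4 are given here, again chosen after their values were seen. The fixed T cell, B cell and plasma cell lists hold 0 of the 23. The 23 are only 0.147% of all genes tested, so a count of 0 in short lists carries no information. Pdcd1, the checkpoint receptor PD-1, had 0.338, 0.162, 0.156, 0.280 and 0.167 CPM in the muscle-rich libraries and 0.845, 0.473, 1.55, 0.708 and 1.06 CPM in the muscle-poor ones, with a log2 fold change of -2.03 ± 0.38 (SE). Iglc2, a constant region of antibody lambda chains with near-identical copies, had 28.0, 7.08, 14.3, 30.9 and 20.7 CPM in the muscle-rich libraries and 42.9, 45.4, 38.9, 63.5 and 49.1 CPM in the muscle-poor ones, with -1.25 ± 0.34 (SE). Sham 2 was among the 2 lowest libraries for both. Cd226, an activating receptor of T and NK cells, had 0.260, 0.129, 0.234, 0.240 and 0.390 CPM in the muscle-rich libraries and 0.845, 0.473, 0.505, 0.438 and 0.433 CPM in the muscle-poor ones, with -1.14 ± 0.34 (SE). Rnase6 had 2.83, 0.937, 1.13, 2.24 and 2.23 CPM in the muscle-rich libraries and 4.84, 2.84, 5.55, 3.60 and 4.92 CPM in the muscle-poor ones, with -1.22 ± 0.33 (SE). Pdcd1 and Cd226 lay under 1.6 CPM in every library, so few reads stand behind them.

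The surgery labels were not used in forming the score, so VSG and sham could be tested with the score as a second term. In this edgeR fit 0 of 15678 genes were called (0%), with 599 (3.82%) at an unadjusted p under 0.05. With the score limma-voom also called 0, and DESeq2 called 16 (0.102%), 14 higher after VSG and 2 lower, Ces1d and Notum. Without the score edgeR called 0, with 595 (3.8%) at an unadjusted p under 0.05. With or without the muscle score, the edgeR count of calls was 0. Values are given for the 3 genes in each direction that had the lowest p among those with a mean of 1 CPM or more. Ces1d, a carboxylesterase, was at 7.07 ± 1.32 CPM (SD, n = 5) after VSG and 18.9 ± 4.47 CPM (SD, n = 5) after sham. With the score its log2 fold change was -1.39 ± 0.17 (SE), with an adjusted p of 0.207 in edgeR, and without the score -1.42 ± 0.20 (SE), with an adjusted p of 0.268. Spsb1, an adaptor of ubiquitin ligases, was at 39.8 ± 3.94 CPM (SD, n = 5) after VSG and 24.5 ± 3.35 CPM (SD, n = 5) after sham, with log2 fold changes of 0.70 ± 0.12 (SE) with the score and 0.70 ± 0.12 (SE) without. Its edgeR adjusted p was 0.752 with the score and 0.581 without. Sst, the hormone somatostatin, had a log2 fold change of -0.81 ± 0.18 (SE) with the score and -0.80 ± 0.19 (SE) without. Gm16698 was at 2.23 ± 0.85 (SE) without the score and 2.93 ± 0.53 (SE) with it. Both fits use the same libraries, and the difference between them was not tested. The other 2, 9630028B13Rik and Sfrp5, were at 1.65 ± 0.30 (SE) and -1.58 ± 0.39 (SE) with the score.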

How the data were processed

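RNA of 10 terminal ileum samples was sequenced with single-end reads of 50 bases after TruSeq preparation, per the labels' protocols. The files the authors deposited hold an estimated count per gene, of which 61.25% are whole numbers (tolerance 1e-06), although they are named as a length-normalised unit. The submitters' processing notes name mm9 and DESeq. Neither the aligner nor the counting method nor its use of strand is given in the sources used here. Antisense and overlapping genes therefore cannot be told apart. Deposited log2 values were not used.

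Estimated counts were rounded to whole numbers. Of 36401 genes, 10315 had no count, and 15678 passed edgeR's filterByExpr. edgeR 4.0.16 (R 4.3.3) with TMM factors and the quasi-likelihood test was used, with limma 3.58.1 and DESeq2 1.42.0 as alternatives, Benjamini-Hochberg adjustment over all tested genes and a threshold of 0.05. The SE is the log2 fold change divided by the square root of F. CPM are normalised by TMM except in the score. Scripts were tested on simulated data. 7 of 652 list genes matched no identifier.

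The sets were formed from measured values, so p-values of their contrast only order genes and count them against a threshold, and none is printed for a single gene. The members and lists were chosen with earlier results of these data known. Named genes are the members of each list with the lowest p (at most 4), a fixed set of markers, and for surgery, among genes with a mean of 1 CPM or more, the 3 of each direction with the lowest p. Other genes are said to be chosen after their values were seen. 1 of the fixed markers is not reported here. Promoters come from RefSeq GRCm38.p6, and no genome coordinates of the deposited files were used. The labels do not say whether samples of a group are separate mice of separate litters or cages, so p-values measure the spread between these libraries. The alternatives tried were other scaling factors, filters and tests, surgery, Gata4 or replicate number as a term, other definitions of the sets, and leaving out libraries.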

Additional observations from a re-analysis of the deposited data

Results flagged for a closer look

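In 192 groups of 5 libraries (each set and each surgery, for the score, the muscle genes and the summed level of each list) 24 had a library far from the others by Dixon's criterion. Chance flags about 1 in 20 groups of independent values, but these groups share libraries and genes. The sets were cut on the score, so that rate does not hold for the score and its genes within a set. Flags of those values only describe the order.

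Sham 3 had a muscle score of 4.57, against 6.31 to 6.85 in the other muscle-poor libraries. Among those libraries its summed cytoskeleton genes were at 275.3 CPM, against 419.1 to 474.7 CPM, and its imprinted genes at 140.5 CPM, against 204.9 to 228.1 CPM. It was high in enteroendocrine genes, at 715.1 CPM, among both the muscle-poor (402.5 to 433.0 CPM) and the sham libraries (433.0 to 492.1 CPM). It was also high in ribosomal protein genes, at 32560 CPM, among both the muscle-poor (15680 to 17010 CPM) and the sham libraries (14760 to 16690 CPM). Among sham libraries it was high in microbe-induced genes, at 14080 CPM against 6418 to 7777 CPM, and in red cell genes, at 173.0 CPM against 75.3 to 94.5 CPM.

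Sham 5 had 666.6 CPM of Des, against 168.6 to 262.2 CPM in the other muscle-rich libraries. Its Cnn1, 442.3 CPM, stood apart among both the muscle-rich (62.6 to 144.7 CPM) and the sham libraries (20.6 to 109.1 CPM). Its cytoskeleton genes summed to 934.5 CPM, against 458.2 to 585.9 CPM in the muscle-rich set. Its small heat shock proteins summed to 231.8 CPM, against 49.6 to 61.0 CPM in the muscle-rich set and 13.0 to 61.0 CPM in the sham libraries.

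VSG 2, high in Gata4, stood apart among VSG libraries in basement membrane genes, at 887.9 CPM against 1301 to 1352 CPM, and in endothelial genes, at 283.4 CPM against 146.7 to 177.8 CPM. Its ileal bile acid genes were at 544.4 CPM, against 5962 to 7608 CPM in the other VSG libraries. Its upper small intestine genes were at 2803 CPM, against 107.8 to 149.7 CPM in the VSG and 80.6 to 149.7 CPM in the muscle-poor libraries.

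Among muscle-rich libraries VSG 5 was low in enteroendocrine genes, at 334.9 CPM against 447.5 to 492.1 CPM, and high in MHC class II genes, at 3095 CPM against 575.6 to 1026 CPM. Sham 4 was low in neurotrophic and guidance genes, at 158.7 CPM against 234.9 to 260.4 CPM. Sham 2 was low in interferon-induced genes among sham libraries, at 201.0 CPM against 330.8 to 373.5 CPM.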

How the results depend on the processing

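Between the muscle-rich and muscle-poor libraries 0 genes were called by edgeR under every alternative run with the sets as a term, that is 3 other scalings, 2 other filters, surgery or Gata4 as a term, sets by other muscle genes, fewer libraries, and each library left out in turn (0 to 0 calls). limma-voom also gave 0. DESeq2 gave 57 higher and 11 lower. With the score as a continuous term the counts were 269 higher with all libraries, 115 higher and 1 lower without sham 5, 52 higher without sham 3, 170 higher and 4 lower without the libraries high in Gata4, 143 higher with surgery as a term, 389 higher and 6 lower with Gata4 as a term, and 574 higher and 44 lower by DESeq2. The counts on the score other than 269 come from alternatives added after seeing the data, and none was called without both sham 5 and sham 3.

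VSG against sham with the score gave 0 calls under every edgeR alternative and each library left out (0 to 0), and 16 by DESeq2. With the replicate number as a block both comparisons gave 0 calls. Deviations of same-numbered libraries correlated between -0.32 and 0.25, and 1 of 10 libraries, sham 2, was closest to its own number. Expression thus showed no pairing by number. Correlations of this kind cannot exclude that the numbers stand for pairs in the design, such as pair-fed mice.

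Medians of the contractile, cytoskeleton, excitation, neuron and glia lists kept their direction in all 35 alternatives but not their size, with lowest values of 0.59, 0.14, 0.23, 0.46 and 0.14. With 1 library left out the lowest were 0.80, 0.67, 0.84, 1.07 and 0.65. Direction turned in 5 alternatives for fibroblast and matrix genes, 6 for basement membrane, 3 for endothelium, 5 for pan-epithelial, 4 for goblet cell, 7 for interferon-induced and 10 for upper small intestine genes, and in 19, 22 and 23 for the brush border, enteroendocrine and microbe-induced lists, whose medians are near 0. At 15364651 counts, the shallowest library, genes under 1 CPM rest on fewer than 15 reads.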

Other observations

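The groups of genes described here were put together after their values were seen, so the counts describe and support nothing. Imprinted genes, expressed from 1 parental copy, were higher in the muscle-rich libraries for 16 of 17 tested, with 0.60 as the median log2 fold change and 4 genes without overlap, against a background of 1.13% of all genes. On the score 6 rose, 3 without sham 5 and 0 without sham 3. Their summed level was 196.1 to 309.9 CPM in the muscle-rich set and 140.5 to 228.1 CPM in the muscle-poor set, so the sets overlapped. Genes of caveolae, the membrane pits that are dense in smooth muscle, were higher for 7 of 7, with a median of 0.64, 0 without overlap, and 5 called on the score, 0 without sham 5 and 1 without sham 3. Small heat shock proteins were higher for 6 of 6, with a median of 1.37 and 4 without overlap, and 5 rose with the score, 2 without sham 5 and 4 without sham 3. Their summed level was 49.6 to 231.8 CPM in the muscle-rich set and 13.0 to 41.6 CPM in the muscle-poor set, with no overlap.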
